A study of Mus musculus with 2 samples.

Results

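Fibroblast and extracellular matrix genes were described in RNA of isolated pancreatic islets, small groups of hormone-secreting cells, of 2 inbred mouse strains. They were taken by name from the gene table: every collagen chain gene, 44 in all, and 25 genes of other matrix proteins, fibroblast markers, collagen-modifying enzymes, metalloproteinases and their inhibitors. These 69 genes stand among 38924 in the deposited files. The CAST group was CAST/EiJ, inbred from wild-caught Mus musculus castaneus, and the B6 group was C57BL/6J, the strain of the mouse reference genome. All mice were males fed standard chow, and their islets were taken at 10 weeks of age; the labels name no treatment. Each group was 1 library, made from 250 islets of a pool of 2 mice, so the spread between mice was not measured and no difference between strains was tested.

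The CAST library held 104324631 expected counts and the B6 library 76600903. Levels are given as TPM, the abundance of a transcript relative to all transcripts, which corrects for transcript length. Differences are given as the log2 ratio of CAST over B6 of counts scaled by TMM factors, for genes whose counts in the 2 libraries summed to 100 or more. The 95% interval beside a ratio is an exact Clopper-Pearson interval and covers counting error only. A ratio of 2-fold or more was called by its size alone. CAST reads carry strain variants against the B6-based reference, and their part in the ratios was not tested. In bulk RNA, more cells of a type and more RNA per cell cannot be told apart.

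Fibroblasts build the interstitial matrix of most organs, and in the pancreas its related stellate cells surround the acini and the islets. Fibrillar collagens form the fibers of that matrix, type IV collagen forms the sheet of basement membranes, and proteoglycans and glycoproteins bind and space the fibers. Collagen chains are hydroxylated at proline and lysine in the endoplasmic reticulum, cross-linked outside the cell by lysyl oxidases, and cut by metalloproteinases that the Timp proteins inhibit. In mouse islets much of the basement membrane is made by endothelial cells of the islet capillaries.

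The genes as a group were higher in CAST. They held 0.164% of counts in CAST (exact interval 0.164 to 0.165) and 0.126% in B6 (0.125 to 0.127), and summed to 441 TPM in CAST and 385 TPM in B6. Of the 69 genes 57 reached 100 counts over both libraries. Among these 57, 17 were at least 2-fold higher in CAST, against 7.18% of all 14768 genes with that many counts, and 4 were at least 2-fold higher in B6, against 5.99% of all genes. By TPM with 0.01 added in place of scaled counts, the 2-fold calls were 11 and 5, against 5.29% and 11.1% of all genes. The ratio was above 0 for 45 of the 57, against 51.7% of all genes, and the median log2 ratio was 0.66, against 0.02 over all genes. With total-count scaling the median of all genes was itself -0.14 and that of the matrix genes 0.51. By TPM with 0.01 added these were -0.33 and 0.36. Values given below by these measures stand against these medians of all genes, not against 0.

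**Figure D1:**
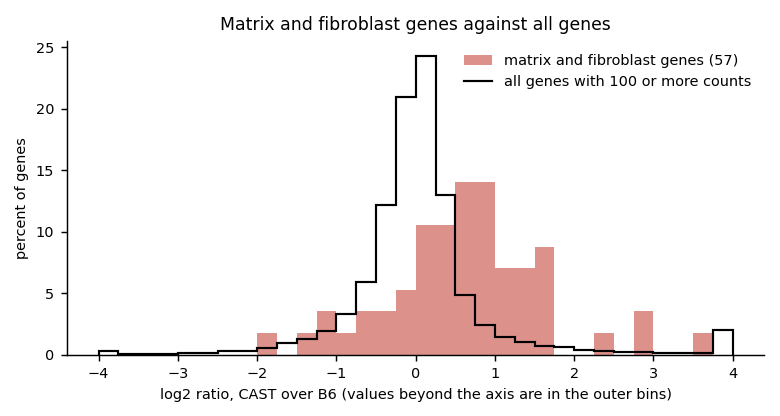
Distribution of the log2 ratio of CAST over B6 (horizontal axis) as percent of genes (vertical axis), for the 57 matrix and fibroblast genes with 100 or more counts (filled) and for all 14768 genes (line). The matrix genes centre at 0.66 and all genes at 0.02.

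The order of levels was much the same in both libraries. Pearson's r of log2(TPM + 1) across the 69 genes was 0.94 and Spearman's rho of TPM 0.94; this is across genes of the same 2 libraries and describes them only. A level of at least 1 TPM was reached by 40 genes in CAST and by 36 in B6, of which 34 were shared. Over all 38924 genes these counts were 12540 in CAST, 12811 in B6 and 11994 shared. Sparc, then Timp3, then Col4a1 had the highest TPM in both libraries, and the 10 highest genes held 66.9% of the summed TPM in CAST and 67.1% in B6.

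**Figure D2:**
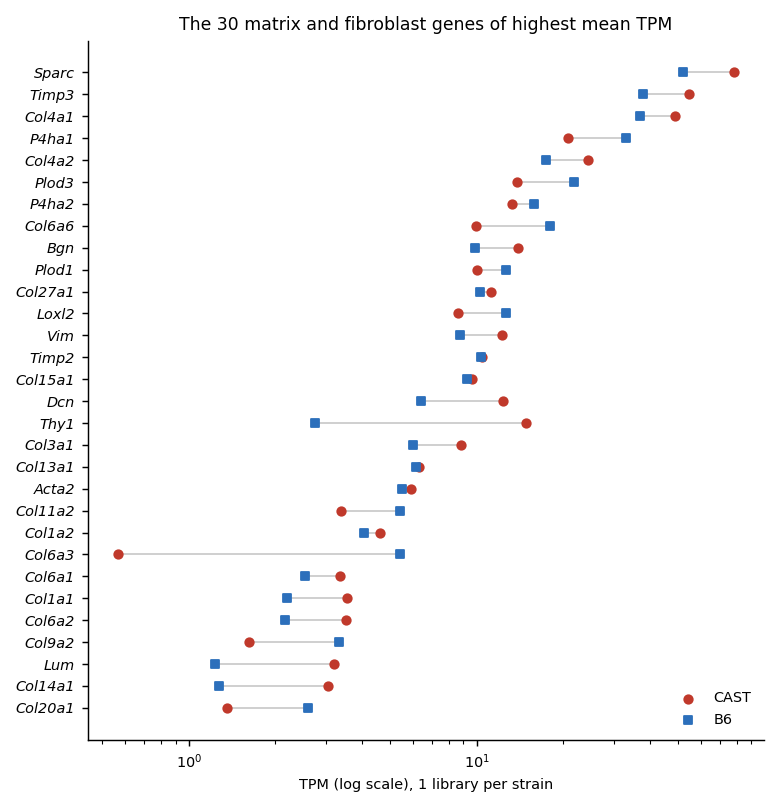
TPM on a log scale (horizontal axis) of the 30 matrix and fibroblast genes of highest mean TPM, in the CAST library (circles) and the B6 library (squares), with a line joining the 2 values of a gene. Sparc is highest in both, and the long lines of Thy1 and Col6a3 run in opposite directions.

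The fibroblast surface markers Pdgfra and Thy1 were both higher in CAST, Pdgfra at a low level. Pdgfra, the receptor for platelet-derived growth factor on fibroblasts, had 142 counts (0.218 TPM) in CAST and 42 (0.1002 TPM) in B6, 2.75-fold higher in CAST (log2 1.46, 0.96 to 2.001). Thy1, a glycolipid-anchored surface protein of fibroblasts that neurons and T cells also carry (chromosome 9, 44043384 to 44048579, GRCm38), had 2464 counts (14.8 TPM) in CAST and 295 (2.75 TPM) in B6, 6.83-fold higher in CAST (log2 2.77, 2.60 to 2.95). Thy1 was thus at rank 6 of the 69 genes by TPM in CAST and at rank 24 in B6. The T cell gene Cd3e had 5 counts in CAST and 4 in B6, and which cells carried Thy1 was not tested. Vim, which encodes the intermediate filament of mesenchymal cells, had 12.2 TPM in CAST and 8.78 TPM in B6 (log2 0.89, 0.79 to 1.00). Acta2, the smooth muscle actin of myofibroblasts and vessel walls, had 5.93 TPM in CAST and 5.49 TPM in B6 (log2 0.46, 0.31 to 0.60). All 4 markers were above 0, and Acta2, which is shared with smooth muscle, was the lowest of them.

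Proteoglycans and glycoproteins of the matrix had ratios above 0 for each of 8 genes, with Postn near 0. In CAST 4 of them were at least 2-fold higher, against 7.18% of all genes, and their median was 1.10. By TPM with 0.01 added 3 of them, without Dcn, were past 2-fold, against 5.29% of all genes, and the median was 0.76. Dcn, which encodes decorin, a small leucine-rich proteoglycan of collagen fibrils (chromosome 10, 97479609 to 97518143), had 2194 counts (12.3 TPM) in CAST and 737 (6.43 TPM) in B6, 2.44-fold higher in CAST (log2 1.28, 1.16 to 1.41). Lum, which encodes lumican, a proteoglycan of the same family on the same chromosome (97565128 to 97572703), had 643 counts (3.205 TPM) in CAST and 159 (1.23 TPM) in B6, 3.30-fold higher in CAST (log2 1.72, 1.47 to 1.99). Bgn, which encodes biglycan, another proteoglycan of that family, had 13.9 TPM in CAST and 9.84 TPM in B6 and stayed under 2-fold (log2 0.84, 0.75 to 0.93). Dcn was therefore at 0.886 of the TPM of Bgn in CAST and at 0.653 in B6.

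Fn1, the fibronectin gene, had 361 counts in CAST and 95 in B6, 3.10-fold higher in CAST (log2 1.63, 1.31 to 1.98). Fbn1, which encodes fibrillin, the scaffold of elastic microfibrils, had 754 counts in CAST and 203 in B6, 3.04-fold higher in CAST (log2 1.60, 1.38 to 1.83). Both were rare per length, at 0.436 and 0.772 TPM in CAST and at 0.178 and 0.327 TPM in B6. Eln, the elastin gene, had 510 counts in CAST and 292 in B6 (log2 0.51, 0.31 to 0.73). Sparc, which encodes a collagen-binding protein that endothelial cells make as well as fibroblasts (chromosome 11, 55394500 to 55423183), was the most abundant of the 69 genes, with 78.1 TPM in CAST and 52.3 TPM in B6 (log2 0.92, 0.88 to 0.96). Postn, the periostin gene, was level by counts, with 463 in CAST and 369 in B6 (log2 0.04, -0.16 to 0.24), and its log2 ratio was -0.12 with total-count scaling; its transcripts differed and are given below.

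**Figure D3:**
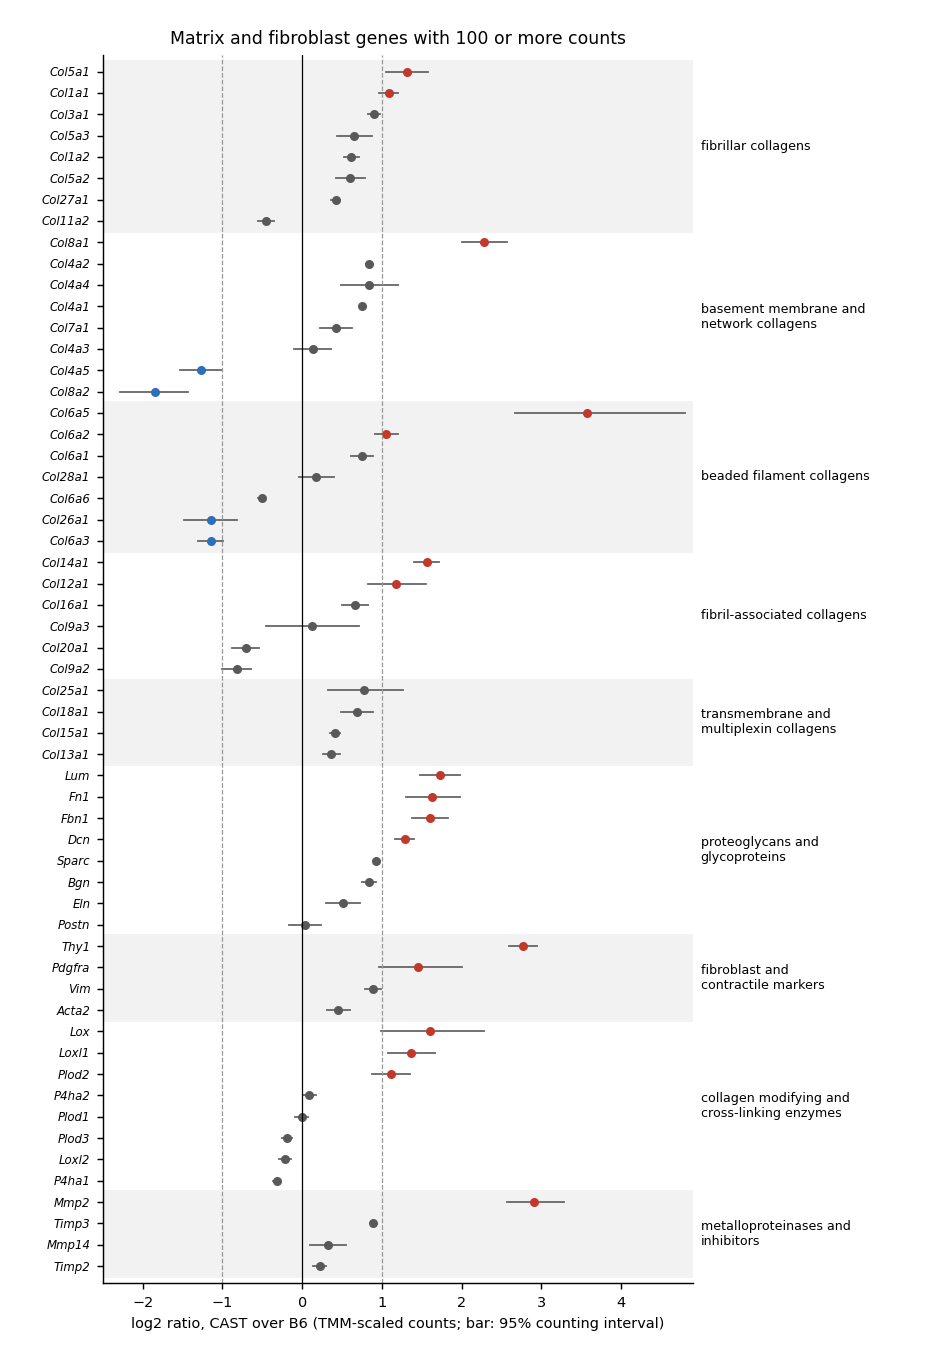
CAST over B6 as a log2 ratio (horizontal axis) with its 95% counting interval (bars) for the 57 genes with 100 or more counts, by role from fibrillar collagens at the top to metalloproteinases and inhibitors at the bottom. Points past 2-fold (dashed lines) are red where higher in CAST (17 genes) and blue where higher in B6 (4 genes).

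Collagen chains were mostly higher in CAST, but they also included all 4 genes that were at least 2-fold higher in B6. Of 33 chains with 100 or more counts 25 were above 0 and 8 below, and the median log2 ratio was 0.62. Those at least 2-fold higher in CAST were 7 (21.2%), against 7.18% of all genes. The 4 at least 2-fold higher in B6 were 12.1% of the chains, against 5.99% of all genes. By TPM with 0.01 added, 3 chains were past 2-fold on the CAST side and 5 on the B6 side, against 5.29% and 11.1% of all genes. By that measure 21 chains were above 0 and the median was 0.25. The 24 other genes with 100 or more counts had a median of 0.89 with 10 at least 2-fold higher in CAST and none in B6.

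Fibrillar collagens were above 0 for 7 of 8 chains, with a median of 0.64. In CAST 2 were at least 2-fold higher, against 7.18% of all genes. By TPM with 0.01 added none was, against 5.29% of all genes. Col1a1 (chromosome 11, 94936224 to 94953042), a chain of the main fibrillar collagen of connective tissue, had 2086 counts (3.55 TPM) in CAST and 803 (2.19 TPM) in B6, 2.13-fold higher in CAST (log2 1.09, 0.97 to 1.21). Its partner Col1a2 had 2412 counts (4.63 TPM) in CAST and 1286 (4.05 TPM) in B6 (log2 0.62, 0.52 to 0.72). The type I protein holds a pair of Col1a1 chains for each Col1a2 chain, while the ratio of Col1a1 to Col1a2 in TPM was 0.767 in CAST and 0.542 in B6. Col3a1, the chain of the type III fibers found beside type I, had 8.80 TPM in CAST and 6.00 TPM in B6 (log2 0.90, 0.82 to 0.97) and was the most abundant of these 3 chains in both libraries.

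The type V chains, which seed type I fibrils, differed among themselves. Col5a1 had 486 counts in CAST and 160 in B6, 2.48-fold higher in CAST (log2 1.31, 1.05 to 1.58), while Col5a2 was at log2 0.60 and Col5a3 at 0.65. Col27a1 had 11.3 TPM in CAST and 10.3 TPM in B6 (log2 0.42, 0.37 to 0.48), more per length than Col1a1, Col1a2 or Col3a1 in either library. Col11a2, a chain best known from cartilage, was the only fibrillar chain with 100 or more counts below 0, with 1575 counts in CAST and 1762 in B6 (log2 -0.45, -0.55 to -0.35). Col11a1, Col2a1 and Col24a1 had 28 counts or fewer in each library.

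Type IV collagen of basement membranes was the most abundant collagen. Col4a1 (chromosome 8, 11198423 to 11312826, minus strand) had 32061 counts (48.9 TPM) in CAST and 15609 (37.0 TPM) in B6 (log2 0.75, 0.72 to 0.78). Col4a2 (chromosome 8, 11312805 to 11449287, plus strand) had 15490 counts (24.3 TPM) in CAST and 7078 (17.4 TPM) in B6 (log2 0.84, 0.80 to 0.88). The ratio of Col4a1 to Col4a2 in TPM was 2.01 in CAST and 2.13 in B6, and the type IV protein holds a pair of alpha1 chains for each alpha2 chain. The genes are read in opposite directions from starts that overlap by 22 bases, and this stretch is shown because it belongs to the first exons of both (RefSeq, GRCm38.p6, plus strand, chr8:11312805-11312826, all in lower case).
Col4a1 and Col4a2: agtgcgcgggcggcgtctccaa

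The other type IV chains, of specialised basement membranes such as that of the kidney, lie in head-to-head pairs too but differed within a pair. Col4a3 and Col4a4, whose annotated starts are 71 bases apart on chromosome 1, had 359 and 210 counts in CAST and 268 and 96 in B6, at log2 0.13 (-0.10 to 0.37) and 0.84 (0.49 to 1.204). Col4a3 was at log2 -0.02 with total-count scaling. Col4a5, on chromosome X at 141475385 to 141689234, had 181 counts in CAST and 357 in B6, 2.41-fold higher in B6 (log2 -1.27, -1.54 to -1.01), and its neighbour Col4a6 had 17 counts in CAST and 10 in B6.

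The 2 chains of type VIII collagen, a network collagen of vessel walls and the cornea, stood at opposite ends of this group. Col8a1 (chromosome 16, 57624258 to 57754737) had 755 counts (1.49 TPM) in CAST and 127 (0.390 TPM) in B6, 4.85-fold higher in CAST (log2 2.28, 2.01 to 2.57). Col8a2 (chromosome 4, 126286793 to 126314330) had 63 counts (0.147 TPM) in CAST and 186 (0.785 TPM) in B6, 3.58-fold higher in B6 (log2 -1.84, -2.29 to -1.43). In CAST the TPM of Col8a1 was 10.1 times that of Col8a2, and in B6 it was 0.497 times. Col7a1, which forms the anchoring fibrils of epithelia, had 519 counts in CAST and 317 in B6 (log2 0.42, 0.22 to 0.63). By TPM with 0.01 added its ratio was -0.17, against a median of -0.33 over all genes.

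Beaded filament collagens had members in both directions, with 2 of 7 at least 2-fold higher in CAST, 2 at least 2-fold higher in B6 and a median of 0.18, which was -0.16 by TPM with 0.01 added. Col6a1 and Col6a2, neighbouring genes on chromosome 10 whose products join with Col6a3 into type VI microfibrils around cells, were higher in CAST. Col6a2 had 1394 counts (3.53 TPM) in CAST and 548 (2.15 TPM) in B6, 2.08-fold higher in CAST (log2 1.06, 0.91 to 1.203). Col6a1 had 1353 counts (3.35 TPM) in CAST and 660 (2.54 TPM) in B6 (log2 0.75, 0.61 to 0.88). Their partner Col6a3 (chromosome 1, 90765923 to 90843971) went the other way, with 516 counts (0.570 TPM) in CAST and 936 (5.41 TPM) in B6, 2.21-fold higher in B6 (log2 -1.15, -1.31 to -0.99).

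Part of the Col6a3 difference lay in a short annotated transcript. Col6a3-206, a retained-intron transcript of 646 bases, had 0 counts in CAST and 148 in B6, and because it is short it made up 74.7% of Col6a3 TPM in B6. Without it Col6a3 had 516 counts (0.570 TPM) in CAST and 788 (1.37 TPM) in B6, 1.86-fold higher in B6 (log2 -0.90). That comparison was chosen after the values were seen.

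The later-found type VI chains lie in a row on chromosome 9. Col6a6 was the most abundant type VI chain in both libraries, with 6893 counts (9.95 TPM) in CAST and 8025 (17.9 TPM) in B6 (log2 -0.51, -0.56 to -0.46). Col6a5 had 137 counts in CAST and 9 in B6, 11.9-fold higher in CAST (log2 3.57, 2.67 to 4.80), and its ratio is uncertain because 572 bases of its transcript are 96.9% identical to Col6a6, so reads could be divided between them. Col6a4 had 24 counts in CAST and 62 in B6. Col26a1, a short collagen-domain gene (chromosome 5, 136741759 to 136883209), had 119 counts (0.618 TPM) in CAST and 215 (1.80 TPM) in B6, 2.20-fold higher in B6 (log2 -1.14, -1.48 to -0.81), and Col28a1 had a log2 ratio of 0.18 (-0.04 to 0.40), below 0 by TPM.

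Fibril-associated collagens, which coat the surface of fibrils, were in both directions. Of 6 chains 2 were at least 2-fold higher in CAST, against 7.18% of all genes, and the median was 0.39. By TPM with 0.01 added 1 was past 2-fold on each side, against 5.29% and 11.1% of all genes. By that measure 3 were above 0 and the median was 0.12. Col14a1, which sits on type I fibrils (chromosome 15, 55307750 to 55520803), had 1591 counts (3.04 TPM) in CAST and 441 (1.27 TPM) in B6, 2.95-fold higher in CAST (log2 1.56, 1.41 to 1.72). Col12a1, of the same kind, had 241 counts in CAST and 87 in B6, 2.26-fold higher in CAST (log2 1.18, 0.82 to 1.55). Col16a1 was at log2 0.66. Col9a2, whose product covers the type II fibrils of cartilage, had 425 counts (1.62 TPM) in CAST and 614 (3.33 TPM) in B6 (log2 -0.82, -1.002 to -0.64), and Col20a1 had 497 and 664 (log2 -0.71, -0.88 to -0.54). Col9a3 had 60 counts in CAST and 45 in B6, with an interval from -0.46 to 0.72, and its ratio was below 0 by total counts and by TPM.

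The transmembrane and basement-membrane-zone collagens lay close together, the 4 with 100 or more counts between log2 0.37 and 0.78. Col13a1, a transmembrane collagen, had 6.29 TPM in CAST and 6.16 TPM in B6 (log2 0.37). Col15a1, of vessel and muscle basement membrane zones, had 9.64 TPM in CAST and 9.28 TPM in B6 (log2 0.41), and Col18a1, the precursor of endostatin, was at log2 0.69. Col25a1, with 120 counts in CAST and 57 in B6, was the highest at 0.78 (0.32 to 1.27). Below 100 counts over both libraries were 12 genes in all: Timp1, with 38 counts in CAST and 17 in B6; Col23a1, with 43 and 14; Col19a1, with 15 and 2; and Col2a1, Col4a6, Col6a4, Col9a1, Col10a1, Col11a1, Col17a1, Col22a1 and Col24a1. Col17a1 and Col24a1 were at 0 in CAST and had 1 and 5 counts in B6.

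Enzymes that modify collagen fell into abundant genes and rare genes that were higher in CAST. The abundant genes had log2 ratios from -0.32 to 0.09, and each had a lower TPM in CAST. By TPM with 0.01 added the median of all genes was also below 0, at -0.33. P4ha1 and P4ha2, catalytic subunits of the prolyl hydroxylase that stabilises the triple helix, had 20.7 and 13.3 TPM in CAST and 32.98 and 15.8 TPM in B6, with log2 ratios of -0.32 (-0.37 to -0.27) and 0.09 (0.01 to 0.17); that of P4ha2 was -0.07 with total-count scaling. The lysyl hydroxylases Plod1 and Plod3 were at log2 -0.01 (-0.08 to 0.07) and -0.19 (-0.25 to -0.13), with 10.0 and 13.8 TPM in CAST and 12.6 and 21.7 TPM in B6. Plod3 overlaps 529 exon bases of Znhit1 on the other strand, which had 2073 counts in CAST and 1980 in B6. Plod2, the lysyl hydroxylase of the telopeptides, had 524 counts (1.51 TPM) in CAST and 198 (0.923 TPM) in B6, 2.16-fold higher in CAST (log2 1.11, 0.88 to 1.36).

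Among the cross-linking amine oxidases, Lox had 101 counts in CAST and 27 in B6, 3.03-fold higher in CAST (log2 1.60, 0.99 to 2.28). Loxl1, which acts on elastin, had 409 counts (1.25 TPM) in CAST and 130 (0.616 TPM) in B6, 2.57-fold higher in CAST (log2 1.36, 1.08 to 1.66). Loxl2, which cross-links type IV collagen, was more abundant and lay just below equality, with 2679 counts (8.59 TPM) in CAST and 2545 (12.7 TPM) in B6 (log2 -0.21, -0.29 to -0.14). A pseudogene copy of Loxl2, Gm21451, had 0 counts in CAST and 326 in B6, and with these added Loxl2 was at -0.39. The 5 abundant enzymes summed with the 3 rare ones to 69.4 TPM in CAST and 97.5 TPM in B6, so the summed level was lower in CAST. At least 2-fold higher in CAST were 3 of the 8 genes, against 7.18% of all genes. By TPM with 0.01 added 2 were, against 5.29% of all genes.

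Metalloproteinases and their inhibitors were at or above equality. Mmp2, the gelatinase that fibroblasts secrete (chromosome 8, 92827291 to 92853420), had 702 counts (2.36 TPM) in CAST and 76 (0.397 TPM) in B6, 7.52-fold higher in CAST (log2 2.91, 2.58 to 3.28). Apart from Col6a5 this was the largest ratio of the 57 genes. Mmp14, the membrane protease that activates Mmp2 together with Timp2, had 407 counts (1.61 TPM) in CAST and 267 (1.64 TPM) in B6 (log2 0.32, 0.09 to 0.55). By TPM with 0.01 added Mmp14 was at -0.03, against a median of -0.33 over all genes. Timp2 itself had 10.4 TPM in CAST and 10.4 TPM in B6 (log2 0.22, 0.14 to 0.30). The ratio of Mmp2 to Timp2 in TPM was 0.227 in CAST and 0.0383 in B6. Timp3, the inhibitor that binds to the matrix, was the second most abundant gene of the 69, with 25281 counts (54.5 TPM) in CAST and 11177 (37.9 TPM) in B6 (log2 0.89, 0.86 to 0.92); it shares 1733 exon bases with Syn3 on the other strand, which had 275 counts in CAST and 228 in B6.

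Transcript use was compared in the 40 genes that have more than 1 annotated transcript and reached 100 counts in both CAST and B6. The most abundant transcript by TPM differed between CAST and B6 in 5 of them, Postn, P4ha2, Col4a5, Col6a3 and Col26a1, which is 12.5%, against 8.11% of all 8981 such genes. By counts it differed in 4 genes, Postn, P4ha2, Col4a5 and also Col16a1, but not in Col6a3 or Col26a1. The share of all genes that differed by counts was not computed, so these 4 have no reference. How surely RSEM could assign reads to one transcript or another was not analysed here. For Col4a5 the transcripts exchanged, Col4a5-202 with 84.7% of the gene's TPM in CAST and 6.90% in B6 and Col4a5-201 with 15.3% in CAST and 92.1% in B6, share all coding exons and differ at the ends only.

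In Postn and P4ha2 the transcripts exchanged differ in coding exons, and these exons are printed because they carry the difference. Periostin has 2 cassette exons in its C-terminal part, each a whole number of codons. Capitals mark the exon and lower case the last 15 bases of the exon before it and the first 15 of the exon after it (GENCODE M21, GRCm38, plus strand, chr3:54380412-54380492 and chr3:54385671-54385754).
Postn 81-base exon (exon 17 of Postn-203): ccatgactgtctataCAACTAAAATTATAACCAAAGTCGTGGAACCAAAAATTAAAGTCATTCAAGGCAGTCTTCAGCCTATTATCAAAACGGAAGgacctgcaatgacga
Postn 84-base exon (exon 20 of Postn-201): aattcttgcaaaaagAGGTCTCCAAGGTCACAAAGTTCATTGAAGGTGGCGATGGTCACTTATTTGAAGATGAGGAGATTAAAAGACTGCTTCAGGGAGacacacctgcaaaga

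Transcripts with either exon were the larger part of Postn in CAST and the smaller part in B6. Postn-203, with the 81-base exon, had 197 counts in CAST and 55.05 in B6, and Postn-201, with the 84-base exon, 194 and 53.07. Postn-204, which has neither, had 56.0 counts in CAST and 239 in B6. Of the counts in transcripts that span its position, those with the 81-base exon were 44.7% in CAST (exact interval 40.1 to 49.4) and 14.98% in B6 (11.5 to 19.1). The 84-base exon was in 44.2% in CAST (39.7 to 48.9) and 15.04% in B6 (11.6 to 19.2). The gene as a whole was level by scaled counts, as given above, but by TPM it was lower in CAST, at 1.54 against 2.20 in B6.

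P4ha2 has a pair of exons used in place of each other, of 66 and 60 bases, which code for part of the catalytic subunit (GENCODE M21, GRCm38, plus strand, chr11:54126346-54126411 and chr11:54126238-54126297). Capitals and lower case are as for Postn. Aligned end to end the exons are identical at 56.9% of 72 columns.
P4ha2 66-base exon (exon 13 of P4ha2-201): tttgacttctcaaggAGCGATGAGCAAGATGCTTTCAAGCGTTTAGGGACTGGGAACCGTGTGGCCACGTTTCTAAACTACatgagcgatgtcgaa
P4ha2 60-base exon (exon 13 of P4ha2-202): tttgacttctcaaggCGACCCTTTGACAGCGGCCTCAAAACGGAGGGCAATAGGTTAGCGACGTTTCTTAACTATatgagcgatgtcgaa

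The 66-base exon held 50.2% of the spanning counts in CAST (48.2 to 52.1) and 24.3% in B6 (22.4 to 26.3). The 60-base exon held 41.1% in CAST (39.2 to 43.0) and 62.3% in B6 (60.1 to 64.5). P4ha2-201 had 1285 counts in CAST and 470 in B6, while P4ha2-202 had 1053 in CAST and 1207 in B6. The main P4ha2 transcript therefore differed between the libraries while the gene's log2 ratio was 0.09.

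**Figure D4:**
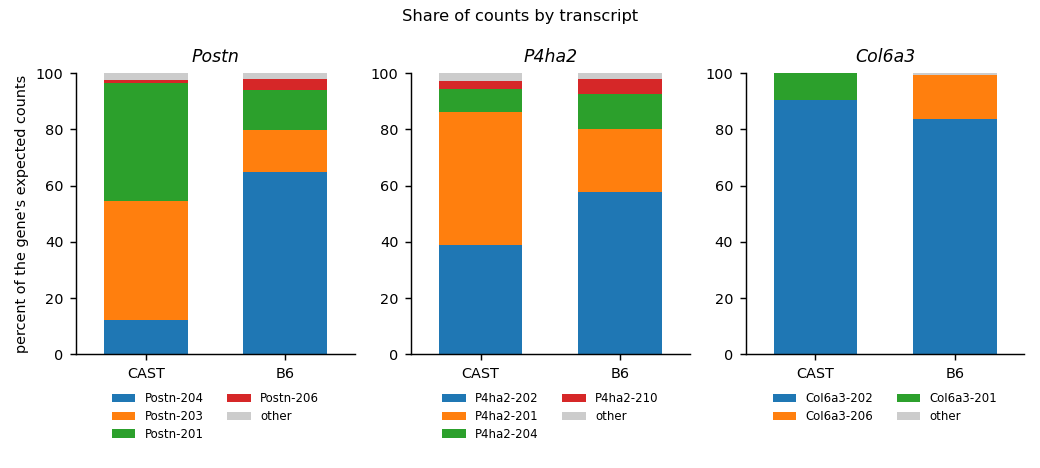
Percent of a gene's expected counts (vertical axis) assigned to each annotated transcript, in the CAST library (left bar) and the B6 library (right bar), for Postn, P4ha2 and Col6a3. Postn-204 and P4ha2-202 are the largest parts in B6 and smaller parts in CAST, and Col6a3-206 is seen in B6.

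Lists of matrix genes outside the 69 had medians nearer to 0. Of all genes 7.18% were past 2-fold on the CAST side and 5.99% on the B6 side. These shares were 5.29% and 11.1% by TPM with 0.01 added, and 6.27% and 7.92% with total-count scaling. The medians of all genes were 0.02, -0.33 by TPM with 0.01 added and -0.14 with total-count scaling. Laminins, nidogens and other basement membrane genes had a median log2 ratio of 0.36 over 16 genes, with 2 past 2-fold in each direction, from Npnt (-1.52) to Agrn, the agrin gene, at 1.27. By TPM with 0.01 added their median was 0.01, and the calls were 0 on the CAST side and 2 on the B6 side. Other fibril and matrix proteins had a median of 0.15 over 27 genes, and -0.002 with total-count scaling, with 5 past 2-fold on the CAST side and 1 on the B6 side, and 3 and 2 with that scaling. Thbs1, which encodes thrombospondin, had 15976 counts in CAST and 3496 in B6 (log2 1.90, 1.85 to 1.96), and Vcan, the versican gene, had 111 in CAST and 492 in B6 (log2 -2.43, -2.75 to -2.14). Other collagen synthesis genes had a median of 0.16 over 20 genes, and -0.0005 with total-count scaling. Of these, P4hb, the partner subunit of P4ha1 and P4ha2, was at 0.35, P3h2 at -0.76, and Tll1, a procollagen-processing protease gene with 246 counts in CAST and 12 in B6, at 4.02.

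Other matrix proteases and inhibitors had a median of 0.30 over 23 genes, with 4 past 2-fold on the CAST side and 3 with the opposite call, from Mmp13, at 11 counts in CAST and 102 in B6 (log2 -3.44), to Adamts4 (2.40). By TPM with 0.01 added their median was 0.002, with 2 past 2-fold on the CAST side and 4 on the B6 side. Matrix receptors had a median of 0.15 over 22 genes, and -0.003 with total-count scaling, with 2 at least 2-fold in each direction, from Itga10 (-1.93) to Itgb4 (1.27). By TPM with 0.01 added none of them was past 2-fold on the CAST side and 2 were on the B6 side. Genes of TGF-beta signalling, the main inducer of matrix genes, had a median of 0.22 over 16 genes. By TPM with 0.01 added their median was -0.11, against -0.33 over all genes. None was 2-fold apart, and they ran from Smad7 (-0.47) to Tgfb2 (0.91). PDGF signalling genes had a median of -0.24 over 4 genes, from Pdgfa (-0.78) to the receptor gene Pdgfrb (0.04).

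Further fibroblast and stellate genes were divided. Of 14 with 100 or more counts 5 were past 2-fold, all on the CAST side, against 7.18% of all genes. Their median was 0.24, and -0.18 by TPM with 0.01 added, where the median of all genes was -0.33. Mfap4, a microfibril-associated gene, had 719 counts in CAST and 117 in B6 (log2 2.33, 2.05 to 2.62), Dpt was at 1.63, Clec3b at 1.37, Tcf21 at 1.32 and Fap, the fibroblast activation protein gene, at 1.23. Above 0 were 10 of the 14 genes, and 6 by TPM with 0.01 added. Below 0 were S100a6, the lowest at -0.61, Pi16 (-0.56), Ly6a (-0.16) and Gsn (-0.15). The 18 genes of this list summed to 82.1 TPM in CAST and 100.9 TPM in B6. Twist1 and Wt1 had 8 counts or fewer in each library.

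Markers of other cells moved too, and their part in the matrix results was not tested. Acinar cell genes had 14 of 16 past 2-fold on the CAST side, a median of 1.96 and summed levels of 21284 TPM in CAST and 6710 TPM in B6. Pericyte and smooth muscle genes had a median of 0.38 over 9 genes with none 2-fold apart, from Rgs5 (-0.04) to Mcam (0.70), and summed to 59.9 TPM in CAST and 65.1 TPM in B6. Across 11 endothelial genes the median was 0.25, from Emcn (-0.29) to Vwf (1.44). By TPM with 0.01 added that median was -0.02, against -0.33 over all genes. Levels of the endothelial genes summed to 255 TPM in CAST and 279 TPM in B6. Schwann cell and adipocyte genes had a median of 0.11 over 7 genes, and -0.04 with total-count scaling, with S100b at 1.67 and Fabp4 at -1.14, and the adipocyte genes Adipoq and Plin1 were at 0 counts in both libraries. Macrophage and lymphocyte genes had a median of -0.03 over 8 genes, and -0.36 by TPM with 0.01 added. Duct genes had a median of -0.25 over 9, and -0.60 by TPM, with Krt19 at 3.52 and Ambp at -1.10. Of the 6 mesothelial genes 2 had 100 or more counts, in opposite directions. Msln had 584 counts in CAST and 5957 in B6 (log2 -3.64), and Krt19, which duct cells share, had 764 in CAST and 54 in B6, while Upk3b, Upk1b, Lrrn4 and Wt1 had 3 counts or fewer in each library. Endocrine genes had a median of 0.01 over 12 genes, which was -0.15 with total-count scaling and -0.34 by TPM with 0.01 added. They ran from Sst (-0.90) to Ppy (0.64), with 6 above 0 and 6 below. Levels of the endocrine genes summed to 608532 TPM in CAST and 574336 TPM in B6, which was most of the TPM but not most of the counts.

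**Figure D5:**
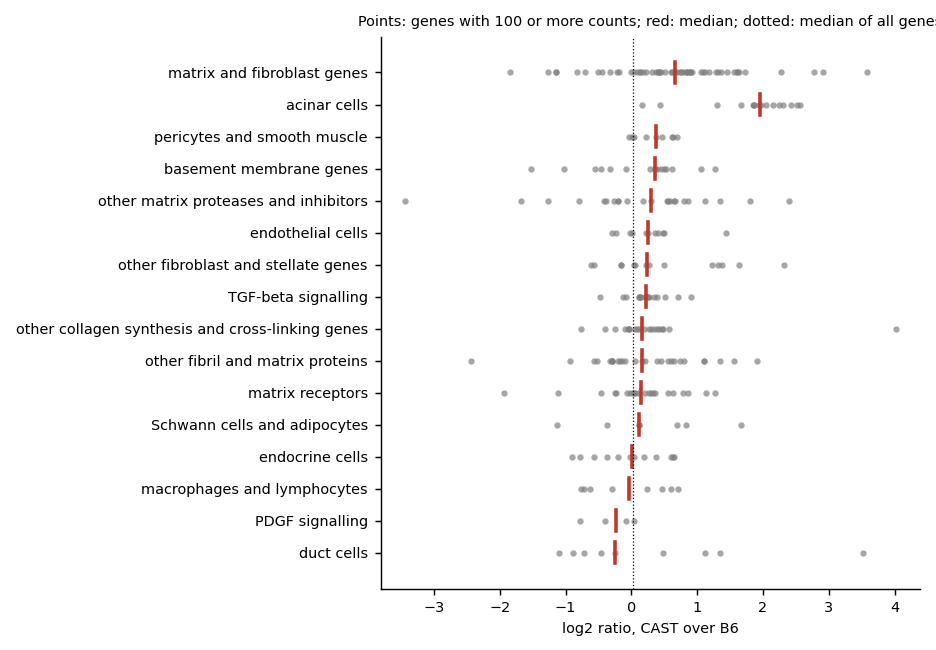
CAST over B6 as a log2 ratio (horizontal axis) of each gene with 100 or more counts (points) and their median (red bars) for the matrix and fibroblast genes, in the top row, and for other lists in order of their median. The matrix and fibroblast genes have a median of 0.66 and the acinar genes of 1.96, and the dotted line is the median of all genes.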

How the data were processed

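RNA of CAST and B6 islets was sequenced as 1 library per strain, of 2 pooled mice each. The expected counts per transcript were made by the authors with RSEM on GRCm38; the submitters' processing notes name both. The second deposited value is a fraction that sums to 1 in each file and was read as the fraction of transcript molecules; TPM here is that value rescaled. Neither aligner, tool versions, annotation nor strand setting is stated in the labels, so antisense and overlapping genes may share reads.

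Each gene's expected counts were added up and rounded. Of 38924 gene IDs 37607 matched a symbol in GENCODE M21 (GRCm38). TMM factors from edgeR 4.0.16 (R 4.3.3) were 0.947 for CAST and 1.056 for B6, and 0.5 was added to scaled counts. Intervals are exact Clopper-Pearson intervals at 95%, and cover counting error alone, as PCR copies are not separate molecules. No test was possible without replicates. The ratio computation was tested on simulated data. Copies were searched with minimap2 2.31 (95% identity over 200 bases and 50% of the shorter transcript). Alternatives used DESeq2 1.42.0 size factors, total counts, TPM, other pseudocounts and filters, thinning and totals without hormone and acinar genes. Intervals used scipy 1.17.1 under Python 3.11.15, tables pandas 2.3.3, and plots matplotlib 3.10.9.

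The members, lists and naming rule were chosen with earlier results of these data known. By that rule, genes at least 2-fold apart with 100 or more counts and the 10 highest by TPM are given in full, and of the other genes the highest and lowest of each group; genes beyond it were chosen after their values were seen.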

Additional observations from a re-analysis of the deposited data

How the results depend on the processing

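No paired analysis was possible because each strain has 1 library. The 21 genes past 2-fold kept that call and their direction with DESeq2 size factors, a pseudocount of 5, thinning of CAST to the B6 total, totals without hormone and acinar genes, and near-identical copies summed. DESeq2 factors and totals without hormone and acinar genes scaled almost as TMM did, with medians of 0.67 and 0.66, so they could hardly change a call. Of the 21 genes only Fbn1 had a near-identical copy, Gm9913, with 0 counts in CAST and 3 in B6. With total counts 18 of the 21 stayed past 2-fold (Col1a1, Col6a2 and Plod2 did not) and the median log2 ratio was 0.51. By TPM with 1 added, which shrinks the ratios of genes near 1 TPM, the counts past 2-fold were 2 in CAST (Thy1 and Mmp2) and 1 in B6 (Col6a3), against 3.14% and 4.99% of all genes. The median was then 0.13, against -0.26 over all genes. By TPM with 0.01 added, an alternative chosen after seeing the data like that of copies and of Col6a3, the count higher in CAST was 11 and the median 0.36. Of the 21 genes 15 then stayed past 2-fold, and Col12a1, Col1a1, Col5a1, Col6a2, Dcn and Plod2 did not. None of the 21 changed sign in any of these. With every gene of at least 1 count included, 19 of the 69 were past 2-fold on the CAST side and 8 on the B6 side, against 16.5% and 13.5% of all genes. The share of counts held by the genes was 0.248% in CAST and 0.175% in B6 without hormone and acinar genes in the total, and their share of TPM was 0.0441% in CAST and 0.0385% in B6. Counting error limits the calls: of the 21 genes, 11 had intervals wholly past 2-fold on the CAST side and 2 on the B6 side. The intervals of the rare genes Lox and Pdgfra reached below log2 1. So did those of Col1a1 (low end 0.97), Col6a2 (0.91), Plod2 (0.88) and Col12a1 (0.82). On the B6 side the intervals of Col6a3 (high end -0.99) and Col26a1 (-0.81) reached inside 2-fold. The spread between mice was not measured.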
